A study of Mus musculus with 12 samples.

Results

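The genes examined here were 54 genes of the cell cycle, of which 29 act in mitosis and 25 in DNA replication. They were chosen by name from a fixed list, by matching the gene identifiers of the expression table to mouse symbols. The matching used no measured value, but the list was chosen with earlier results of these data known. All 54 were present among the 54532 genes of the table, and all 54 were among the 12871 genes with an FPKM (fragments counted on a gene relative to its exonic length and to the depth of the library) of at least 1 in at least 3 libraries, which were the genes tested. Total RNA of bone marrow mesenchymal stem cells (MSCs) of C57BL/6 mice aged 4 weeks was sequenced in 12 libraries, 3 for each of 4 groups. Control cells were from Chd7 fl/fl mice, labelled WT, and knockout cells, labelled KO, were from Prx1-cre;Chd7 fl/fl mice, so that both genotypes carried the floxed alleles and only the knockouts carried Cre. Cells of passage 3 were cultured for 5 days either in osteogenic medium with 10 mM β-glycerophosphate, 10 nM dexamethasone and 50 μM ascorbic acid or in adipogenic medium with 10 μg/ml insulin, 1 μM dexamethasone and 0.5 μM isobutylmethylxanthine. Prx1-cre is active in the mesenchyme of the limb bud and its descendants, and it removes exon 2 of Chd7 only in cells of that lineage. No source stated how many mice gave the 3 libraries of a group, so the p-values measure the spread between libraries, which may be technical.

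A dividing cell copies its DNA in S phase and separates the copies in mitosis. Origins of replication are licensed in G1 when Cdc6 and Cdt1 load the Mcm helicase, and E2F factors and cyclin E then turn on the genes of S phase, among them those for the sliding clamp Pcna, the polymerases and the enzymes that make deoxynucleotides. Mitotic genes are switched on later, in G2, largely through B-Myb (Mybl2) and Foxm1, and comprise cyclin B and Cdk1, the Aurora and Polo kinases, kinesins, kinetochore proteins and the activator Cdc20 of the anaphase-promoting complex. The transcripts of both sets are low in cells that have left the cycle, and progenitors of bone and fat cells stop dividing as they differentiate.

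Each library held about 17490800 to 21093400 fragments on genes, recovered from the steps of the FPKM values. Chd7 itself, which encodes a chromatin remodeler, stood at an FPKM of 2.64, 2.67 and 2.77 in control and 2.03, 2.35 and 2.28 in knockout libraries 1, 2 and 3 in osteogenic medium, and at 2.26, 1.81 and 2.23 in control and 2.03, 2.35 and 2.48 in knockout libraries in adipogenic medium. The knockout libraries lay below the control libraries in osteogenic medium and overlapped them in adipogenic medium, and the difference was -0.20 ± 0.08 (SE, limma adjusted p = 0.16) in the former and 0.09 ± 0.08 (SE, limma adjusted p = 0.428) in the latter (0.02 without control library 2). The value of a whole gene is not a check on the loss of exon 2. Control library 2 in adipogenic medium stood apart: its mean correlation over genes was 0.941 with the other control libraries of that medium, 0.981 with osteogenic control libraries and 0.983 with osteogenic knockout libraries, so that it resembled the osteogenic libraries more than its labelled group. It was kept in that group, and whether its label is right was not tested. The counts of called genes, and the differences it moves most, are given with and without it. Macrophage markers were abundant in every library. The summed FPKM of 12 of them was 13594 to 14012 in control and 15156 to 15590 in knockout libraries in osteogenic medium, and in adipogenic medium it was 18459 and 18494 in control libraries 1 and 3, 9047 in control library 2 and 7414 to 8863 in knockout libraries. These sums do not hold for each marker: in adipogenic medium 6 of the 12 fell in knockout cells and 2, C1qa and C1qb, rose, and without control library 2 7 fell and 5 rose. In osteogenic medium 1 rose (C1qa) and 2 fell (Csf1r and C1qb), and without the adipogenic control library 2 Lyz2 also rose and Cd68 also fell. The summed FPKM of 10 mesenchymal markers lay between 1069 and 1614 over all libraries, although Thy1, the gene for CD90, did not exceed 1.03. Single markers went both ways in knockout cells in adipogenic medium: Itgb1, Pdgfrb and Eng rose, by 0.20, 0.82 and 0.40, and Cd44 and Ly6a fell, at -0.41 and -0.90. Without control library 2 Pdgfra also rose and Nt5e also fell there. In osteogenic medium Itgb1 and Nt5e rose, and without the adipogenic control library 2 Eng and Vcam1 also rose and Pdgfra fell. Endothelial markers were low, but 8 of them summed to 3.26 to 3.36 in control and 9.12 to 10.0 in knockout libraries in osteogenic medium and to 4.53 to 5.71 and 7.49 to 9.82 in adipogenic medium. Of the 4 that were tested, Pecam1, Cdh5 and Emcn rose in osteogenic medium, least for Pecam1 at 0.80 (limma adjusted p = 0.0115, 0.000375 and 0.000102 in this order). In adipogenic medium Cdh5 and Emcn also rose, by 0.81 and 0.66 (limma adjusted p = 0.00081 and 0.000415), and Pecam1 did not pass, at -0.14 (limma adjusted p = 0.511). Without control library 2 Kdr also rose there, by 0.44, and Pecam1 fell, at -0.36. Erythroid and lymphoid markers summed to no more than 0.395. The part of cell composition in the differences below was not tested, and in bulk RNA fewer cells of a kind cannot be told apart from less RNA per cell.

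All 54 genes were detected, from Exo1, an exonuclease, at an FPKM of 0.588 to 1.62, to Pcna at 58.8 to 139. An FPKM under 1 was seen in at least 1 library for 4 of them, Ttk, Cenpf, Exo1 and Fen1. The replicates were close: the coefficient of variation had a median over the 54 genes of 5.48% in control and 3.43% in knockout libraries in osteogenic medium and of 6.94% in knockout libraries in adipogenic medium. It was 37.5% in control libraries in adipogenic medium, where library 2 exceeded both other libraries for 54 of 54 genes and was the highest of all 12 libraries for 36. That library also stood apart over all genes, and the share of all genes with these orders was not computed. To a smaller extent knockout library 1 in adipogenic medium differed from its group over all genes tested. It correlated at 0.980 and 0.981 with knockout libraries 2 and 3, which correlated at 0.992 with each other. Some values may include reads of other genes, since the use of strand was not given in the sources used here. Over the exonic bases, 84.2% of Fen1, 67.3% of Gins2 and 29.3% of Kif20a are overlapped by a gene on the opposite strand, and Ccnb1, Ccnb2, Pcna and Tyms have named pseudogenes.

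**Figure D1:**
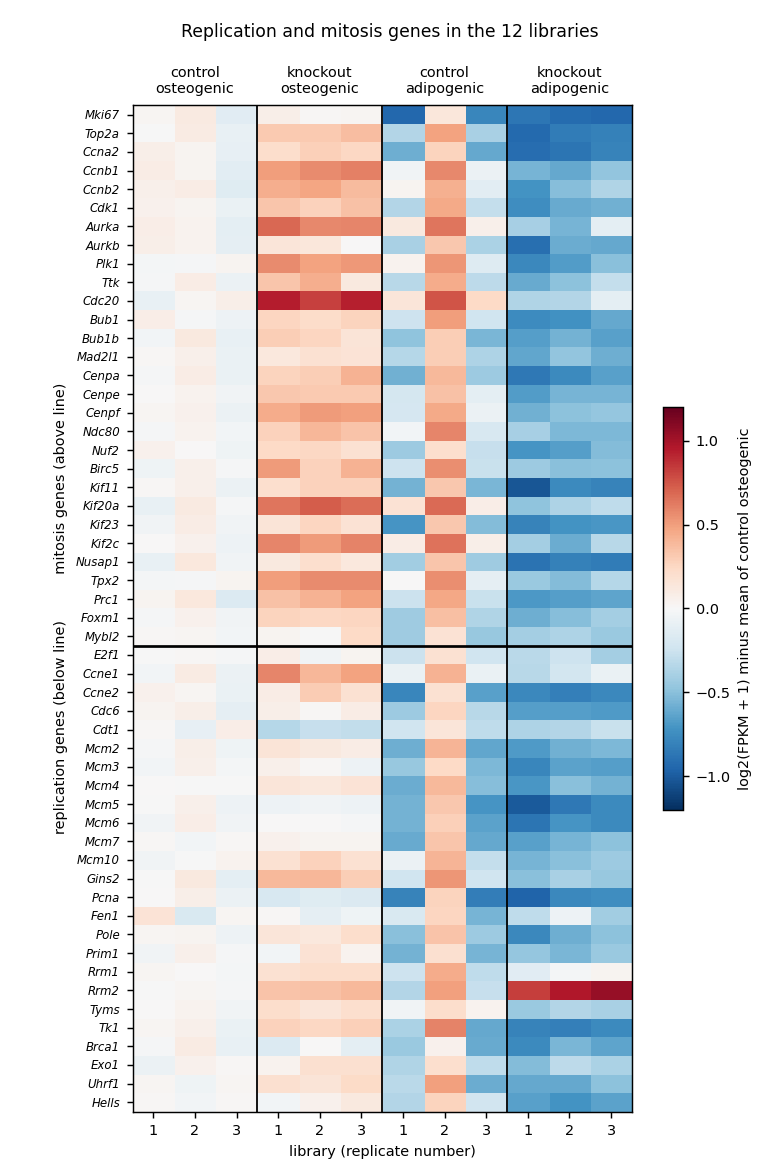
Rows are the 29 mitosis genes (above the line) and the 25 replication genes (below it), columns are the 12 libraries by group and replicate number, and colour is log2(FPKM + 1) minus the mean of the 3 control libraries in osteogenic medium. Control library 2 in adipogenic medium is redder than libraries 1 and 3 in all 54 rows, and Rrm2 is the only row that is red in the 3 knockout libraries in adipogenic medium.

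In the fit of all 12 libraries the mitosis genes differed in one direction within each medium. The replication genes had both signs in osteogenic medium, with 19 positive and 6 negative, while in adipogenic medium 24 of 25 were negative, Rrm2 being the exception. Without control library 2, 19 replication and 28 mitosis genes were negative in adipogenic medium, and 6 and 1 were positive. The letters in the promoters of both sets are shown as a description. RefSeq promoters (GRCm38.p6) were at hand for 44 of the 54 genes, and the 250 bases before the annotated start were searched on both strands for 3 motifs known from cell-cycle promoters. These were the box CCAAT, to which the factor NF-Y binds, the cell cycle genes homology region (CHR) TTTGAA, at which the DREAM and MuvB complexes bind, and the letters of an E2F site. For the last of these TTCCCGC was searched together with variants in its middle. The variant with a C and then a G there reads TTCGCGC. With a G and then a C it reads TTGCCGC. The last variant has a pair of Gs and reads TTGGCGC, and its reverse complement can share bases with CCAAT. The CCAAT box was held by 17 of 24 mitosis promoters and 12 of 20 replication promoters, against 34.5% of all 27025 promoters. The CHR letters were held by 7 of 24 mitosis and 2 of 20 replication promoters, against 16.3% of all, and the E2F letters by 3 of 24 mitosis and 9 of 20 replication promoters, against 7.97% of all. A match is a description of these letters and not a sign of binding, and the shares were not tested.

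The mitosis promoters below are those of the 3 genes with the largest difference between the genotypes among those that held both CCAAT and CHR letters, and capitals mark these letters. Each run ends at the base before the annotated start, at chr4:118437344-118437463 for Cdc20, chr11:99024190-99024439 for Top2a and chr9:70421555-70421754 for Ccnb2, all on the minus strand. In Top2a, CCAAT or its reverse complement occurred 6 times and the CHR letters 2 times.
Cdc20: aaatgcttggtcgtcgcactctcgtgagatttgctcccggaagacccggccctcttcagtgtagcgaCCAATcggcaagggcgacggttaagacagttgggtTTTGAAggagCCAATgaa
Top2a: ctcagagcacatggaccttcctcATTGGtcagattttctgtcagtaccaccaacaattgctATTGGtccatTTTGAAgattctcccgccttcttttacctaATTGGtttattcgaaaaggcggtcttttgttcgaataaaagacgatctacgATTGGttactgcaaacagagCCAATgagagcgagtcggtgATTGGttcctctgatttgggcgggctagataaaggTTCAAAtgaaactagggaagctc
Ccnb2: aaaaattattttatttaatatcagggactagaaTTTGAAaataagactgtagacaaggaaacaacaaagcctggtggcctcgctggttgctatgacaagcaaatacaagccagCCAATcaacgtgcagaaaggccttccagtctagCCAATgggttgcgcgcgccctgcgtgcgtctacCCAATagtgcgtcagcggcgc

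The replication promoters below were chosen in the same way among those that held the E2F letters, which are in capitals, and lie on the plus strand at chr12:24708004-24708253 for Rrm2, chr19:38930870-38930989 for Hells and chr8:75109309-75109508 for Mcm5. In Rrm2 a single match lay 235 bases before the start, in Hells a pair of matches began 61 and 43 bases before it, and in Mcm5 there were 3, the last pair of which overlap.
Rrm2: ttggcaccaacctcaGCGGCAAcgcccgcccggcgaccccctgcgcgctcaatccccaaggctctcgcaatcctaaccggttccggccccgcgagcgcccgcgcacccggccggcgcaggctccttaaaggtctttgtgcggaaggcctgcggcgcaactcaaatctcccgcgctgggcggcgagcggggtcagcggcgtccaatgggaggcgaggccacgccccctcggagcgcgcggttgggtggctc
Hells: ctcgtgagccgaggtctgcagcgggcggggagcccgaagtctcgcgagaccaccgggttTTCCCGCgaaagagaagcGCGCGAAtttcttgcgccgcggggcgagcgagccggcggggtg
Mcm5: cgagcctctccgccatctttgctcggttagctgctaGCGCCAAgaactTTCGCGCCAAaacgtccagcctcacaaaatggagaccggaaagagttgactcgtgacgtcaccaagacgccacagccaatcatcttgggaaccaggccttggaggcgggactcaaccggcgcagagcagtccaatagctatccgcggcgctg

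The comparison of knockout with control cells in osteogenic medium asked what loss of Chd7 did to these genes during osteogenic differentiation. Some mitosis genes were higher in the knockout libraries. Of 29, 7 rose and none fell, with Cdc20, Kif20a, Aurka, Kif2c, Ccnb1, Tpx2 and Plk1 as the 7, while over all genes tested 4.94% rose and 4.15% fell. The difference was positive for 29 of 29, with a median of 0.32 on the log2(FPKM + 1) scale and a range of 0.04 to 0.90, against a median of -0.01 over all genes tested. This scale understates the change of genes of low FPKM. Of the 25 replication genes, 1 rose (Ccne1) and none fell, with a median of 0.12 and a range of -0.30 to 0.49. At an unadjusted p under 0.05, 11 mitosis genes were higher and none lower, and 2 replication genes were higher and 1 lower, and limma voom on the recovered fragments called 8 mitosis genes and 1 replication gene, all higher.

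These counts depended on the estimate of the spread, which all 12 libraries share. With control library 2 in adipogenic medium left out of the fit, which changes no value in osteogenic medium, 22 of 29 mitosis genes and 7 of 25 replication genes rose and 1 replication gene, Cdt1, fell, while 11.4% of all genes tested rose and 10.8% fell. In the other direction, leaving out any single library in osteogenic medium, or scaling the FPKM of every library to the same sum (TPM), left 2 mitosis calls (Cdc20 and Kif20a) or 1 (Cdc20) and no replication call.

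Among the regulators of anaphase and mitotic entry, Cdc20 showed the largest difference of the 54. Its FPKM was 13.5, 14.7 and 15.2 in control and 28.6, 26.3 and 28.5 in knockout libraries 1, 2 and 3 in osteogenic medium. The groups were far apart, and Cdc20 rose by 0.90 ± 0.14 (SE, limma adjusted p = 0.00345). Plk1, the Polo kinase that drives mitotic entry and spindle assembly, stood at 13.2, 13.3 and 13.7 in control and 20.3, 19.2 and 19.7 in knockout libraries, and rose by 0.52 ± 0.14 (SE, limma adjusted p = 0.0469). The call of Plk1 was lost on leaving out any library in osteogenic medium. Aurka, the Aurora kinase of centrosomes, ranged over 8.09 to 9.39 in control and 13.7 to 14.9 in knockout libraries, and rose by 0.62 ± 0.15 (SE, limma adjusted p = 0.033). Its relative Aurkb, of the chromosomal passenger complex, overlapped between the groups at 8.62 to 9.84 and 9.37 to 10.4, a difference of 0.09 ± 0.17 (SE, limma adjusted p = 0.808).

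Ccnb1, the cyclin that activates Cdk1 for mitosis, stood at 9.48, 9.07 and 8.02 in control and 12.9, 13.5 and 14.0 in knockout libraries. The lowest knockout library exceeded the highest control library, and Ccnb1 rose by 0.56 ± 0.15 (SE, limma adjusted p = 0.0416). Cdk1 ranged over 10.8 to 11.9 in control and 14.1 to 15.0 in knockout libraries, also without overlap. The difference of 0.32 did not pass in the fit of all 12 libraries (limma adjusted p = 0.306) and passed without the adipogenic control library 2 (limma adjusted p = 0.00272). Top2a, the topoisomerase that untangles sister chromatids, had an FPKM of 18.9, 20.3 and 17.8 in control and 23.8, 23.8 and 24.7 in knockout libraries, with a difference of 0.33 ± 0.19 (SE, limma adjusted p = 0.334). Mki67, the usual marker of cycling cells, differed least of the 29 mitosis genes. Its FPKM was 20.9, 22.4 and 18.8 in control and 21.7, 20.8 and 21.1 in knockout libraries, with overlap and a difference of 0.04 ± 0.22 (SE, limma adjusted p = 0.95).

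Of the motor proteins, Kif20a, a kinesin of the central spindle, stood at 6.32, 7.43 and 6.71 in control and 11.2, 11.9 and 11.4 in knockout libraries and rose by 0.68 ± 0.13 (SE, limma adjusted p = 0.0112), although under TPM scaling the difference did not pass. Kif2c, which depolymerizes microtubules at kinetochores, had an FPKM of 3.98, 4.14 and 3.73 in control and 6.42, 6.04 and 6.46 in knockout libraries, a rise of 0.56 ± 0.14 (SE, limma adjusted p = 0.0322). Tpx2, which activates Aurka on the spindle, rose by 0.55 ± 0.14 (SE, limma adjusted p = 0.0377). The other 4 genes of kinesins and spindle proteins, Kif11, Kif23, Nusap1 and Prc1, had differences of 0.15 to 0.42 that did not pass.

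None of the 6 genes of kinetochore and centromere passed. For each the knockout libraries lay above the control libraries, but the share of all genes tested without such overlap was not computed. Cenpf, a kinetochore protein, had an FPKM of 1.73, 1.77 and 1.56 in control and 2.66, 2.83 and 2.77 in knockout libraries and a difference of 0.48 ± 0.14 (SE, limma adjusted p = 0.0586). Cenpe, the kinesin that congresses chromosomes, stood at 5.01, 5.14 and 4.79 and 6.48, 6.41 and 6.46, with a difference of 0.32 ± 0.12 (SE, limma adjusted p = 0.136). Bub1, a kinase of the spindle checkpoint, had values of 5.86, 5.44 and 5.22 in control and 6.75, 6.58 and 6.82 in knockout libraries and a difference of 0.25 ± 0.17 (SE, limma adjusted p = 0.426). Without the adipogenic control library 2 all 6 kinetochore genes and Bub1 were higher. Of the transcription factors of G2, Foxm1 stood at 7.24, 7.62 and 7.07 in control and 8.98, 8.88 and 8.92 in knockout libraries with a difference of 0.26 ± 0.17 (SE, limma adjusted p = 0.41), and Mybl2 overlapped at 4.03 to 4.22 and 4.14 to 5.07.

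**Figure D2:**
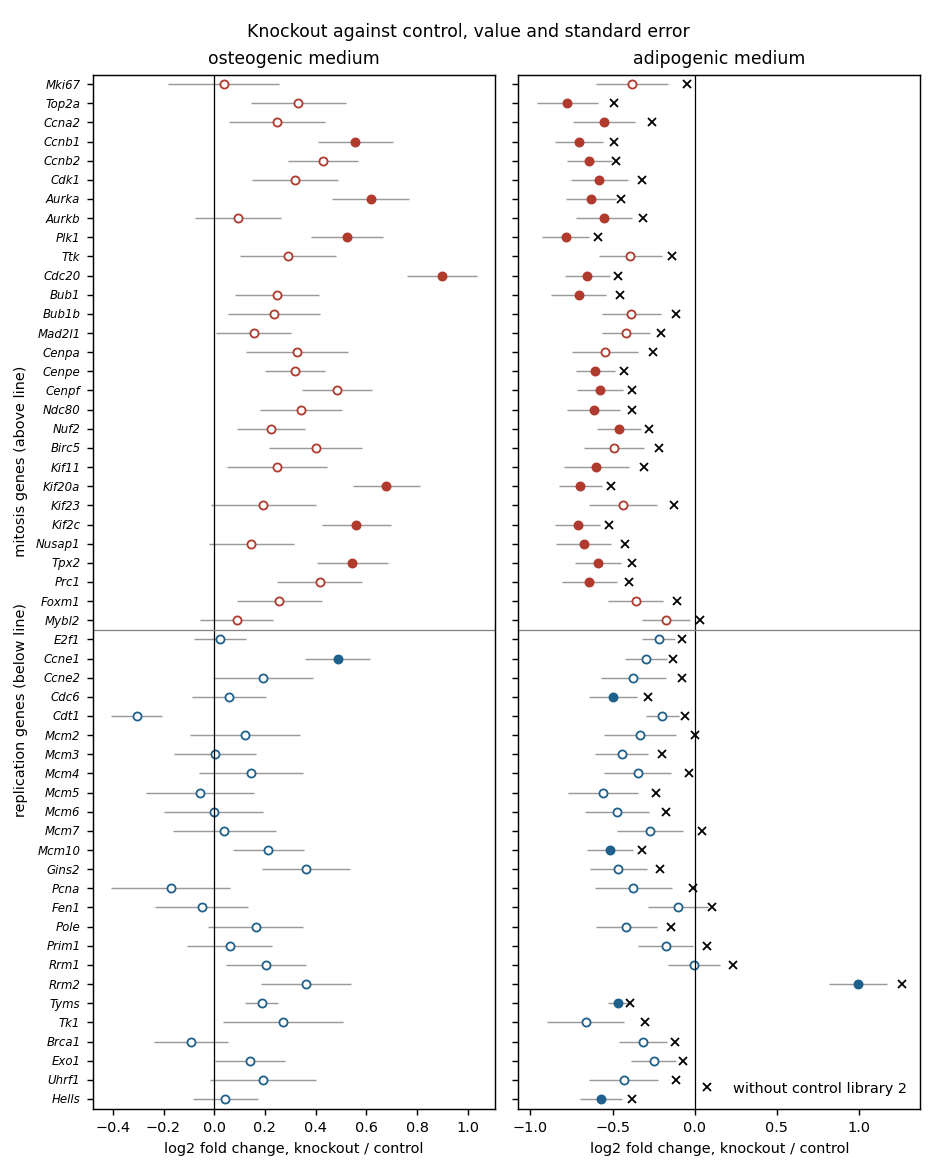
Points are the log2 fold change of knockout against control for each gene with its standard error (bars), mitosis genes in red and replication genes in blue, filled where the adjusted p was under 0.05, and crosses in the right panel are the values without control library 2. The points of all 29 mitosis genes lie right of 0 in osteogenic medium and left of 0 in adipogenic medium, where the cross of Mybl2 lies at 0.03. In osteogenic medium the replication genes lie between -0.30 and 0.49.

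The differences of the replication genes in osteogenic medium had both signs. Ccne1, the cyclin that starts S phase, was the one that rose, from 10.2, 11.2 and 9.86 in control to 16.1, 14.1 and 14.9 in knockout libraries, by 0.49 ± 0.13 (SE, limma adjusted p = 0.042). E2f1, the transcription factor of S phase genes, overlapped at 18.6, 18.8 and 18.5 in control and 19.8, 18 and 19.0 in knockout libraries, a difference of 0.02 ± 0.10 (SE, limma adjusted p = 0.933). Cdt1, the licensing factor that is destroyed when S phase starts, had a negative difference. It stood at 21.9, 20.2 and 22.9 in control and 16.9, 17.7 and 17.4 in knockout libraries, all of them below the controls, with a difference of -0.30 ± 0.10 (SE, limma adjusted p = 0.094). This did not pass in the fit of all 12 libraries and passed without the adipogenic control library 2 (limma adjusted p = 0.00219).

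None of the Mcm helicase genes passed between the genotypes in osteogenic medium. Over Mcm2 to Mcm7 the differences ranged from -0.06 to 0.14, and Mcm6 had 33.4 to 36.4 in control and 34.2 to 34.5 in knockout libraries. Pcna was lower in each knockout library, at 116, 121 and 109.8 in control and 101, 104 and 102 in knockout libraries, but the difference of -0.17 ± 0.23 (SE, limma adjusted p = 0.735) did not pass, with or without the adipogenic control library 2. The 4 genes of nucleotide synthesis, Rrm1, Rrm2, Tyms and Tk1, had differences of 0.19 to 0.36, none of which passed in the fit of all 12 libraries and all of which passed without that library. Rrm2, the small subunit of ribonucleotide reductase, had values of 43.4, 44.4 and 43.1 in control and 55.5, 56.0 and 57.5 in knockout libraries. The 4 genes of repair and chromatin, Brca1, Exo1, Uhrf1 and Hells, did not pass, with differences of -0.09 to 0.19.

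In adipogenic medium the same comparison asked about loss of Chd7 during adipogenic differentiation. Here most mitosis genes were lower in the knockout libraries in the fit of all 12 libraries. Of 29, none rose and 20 fell (at an unadjusted p under 0.05 23 were lower and none higher), while 16.7% of all genes tested rose and 16.5% fell. The difference was negative for 29 of 29, with a median of -0.59 and a range of -0.78 to -0.17, against a median of -0.01 over all genes tested. Of the 25 replication genes, 4 fell (Cdc6, Mcm10, Tyms and Hells) and 1 rose (Rrm2), with a median of -0.37. Without control library 2, 23 mitosis genes fell with a median of -0.38, and 9 replication genes fell and 2 rose with a median of -0.12, while 24.3% of all genes tested rose and 26.8% fell. In that fit the difference was negative for 28 mitosis and 19 replication genes and positive for 1 and 6. Thus the values without the library that stood apart were smaller and more of them passed. Scaling to TPM moved the median of all genes from -0.01 to 0.14, and relative to it 29 of 29 mitosis and 23 of 25 replication genes were still lower, but only 3 mitosis genes and 1 replication gene fell. These were Plk1, Kif20a and Kif2c, and Tyms. With only the 6 adipogenic libraries in the fit, 2 mitosis genes (Plk1 and Kif20a) and 1 replication gene (Tyms) fell, and Rrm2 rose under both.

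Plk1 had one of the largest differences. Its FPKM was 13.8, 19.8 and 11.9 in control libraries 1, 2 and 3 and 7.41, 8.08 and 9.19 in knockout libraries. The highest knockout library lay below the lowest control library, and Plk1 fell, with a difference of -0.78 ± 0.14 (SE, limma adjusted p = 0.00247) and without control library 2 of -0.59 ± 0.08 (SE, limma adjusted p = 0.0002). Cdc20 stood at 16.0, 25.0 and 17.3 in control and 11.0, 11.1 and 13.3 in knockout libraries, again without overlap, and fell, with a difference of -0.65 ± 0.14 (SE, limma adjusted p = 0.00576) and of -0.47 without control library 2, a call that was lost under TPM scaling and with only the adipogenic libraries. Ccnb1 had an FPKM of 8.54, 13.6 and 8.36 in control and 5.68, 5.41 and 6.09 in knockout libraries and fell, with -0.70 ± 0.15 (SE, limma adjusted p = 0.00525) and -0.49 without control library 2. Its control libraries 1 and 3 were at the level of the osteogenic controls, so that the lower values were those of the knockout libraries. All 4 genes of cyclins and Cdk1 fell, with differences of -0.70 to -0.55, and of -0.49 to -0.26 without control library 2.

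Kif20a stood at 7.79, 11.5 and 7.27 in control and 4.60, 5.03 and 5.32 in knockout libraries, with a difference of -0.70 ± 0.13 (SE, limma adjusted p = 0.00322), or -0.51 without control library 2. Kif2c had values of 4.27, 6.78 and 4.19 in control and 2.73, 2.29 and 2.94 in knockout libraries, with a difference of -0.71 ± 0.14 (SE, limma adjusted p = 0.00365), or -0.52 without that library. In all, 6 of the 7 genes of kinesins and spindle proteins fell, Kif23 being the exception. Top2a stood at 14.6, 26.9 and 14.3 in control and 9.45, 10.2 and 10.4 in knockout libraries and fell, with -0.78 ± 0.19 (SE, limma adjusted p = 0.0109) and -0.49 without that library. Bub1, at 4.46, 8.23 and 4.52 in control and 2.85, 2.92 and 3.24 in knockout libraries, fell with -0.71 ± 0.17 (SE, limma adjusted p = 0.00951) and -0.46 without that library. The other checkpoint genes Bub1b and Mad2l1 did not pass, at -0.39 and -0.42, although without that library Mad2l1 fell, with -0.20 ± 0.06 (SE, limma adjusted p = 0.0188). Among kinetochore genes, Cenpe at 4.15, 6.62 and 4.53 in control and 2.76, 3.05 and 3.05 in knockout libraries and Cenpf at 1.34, 2.68 and 1.56 and 0.797, 0.904 and 0.944 both fell, with differences of -0.60 and -0.58 (-0.43 and -0.38 without that library), as did Ndc80 and Nuf2, partners in the complex that grips microtubules.

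Mki67 was again an exception. It stood at 10.3, 22.8 and 11.6 in control and 10.9, 10.4 and 10.3 in knockout libraries, and without control library 2 the difference was -0.05 ± 0.07 (SE, limma adjusted p = 0.599). The transcription factors did not pass either: Foxm1 had values of 5.17, 9.69 and 5.46 in control and 4.54, 4.84 and 5.25 in knockout libraries and a difference without control library 2 of -0.11 ± 0.05 (SE, limma adjusted p = 0.137), and for Mybl2 it was 0.03 ± 0.07 (SE, limma adjusted p = 0.733).

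**Figure D3:**
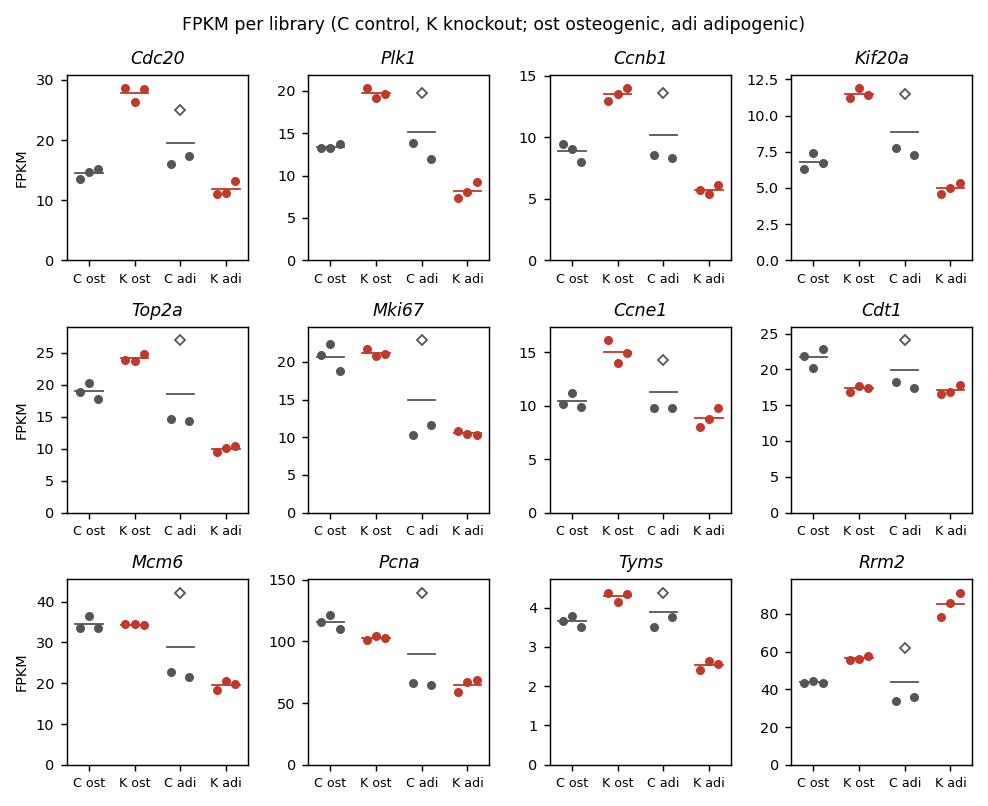
FPKM of 12 genes in each library (points, in the order of replicate 1, 2 and 3), with the mean of each group as a line, control in grey and knockout in red, and control library 2 in adipogenic medium as an open diamond. The red points lie above the grey for Cdc20, Plk1, Ccnb1 and Kif20a in osteogenic medium and below them in adipogenic medium, and for Rrm2 they lie above in both.

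Of the replication genes, Rrm2 moved against the rest in the fit of all 12 libraries. Its FPKM was 33.9, 61.7 and 35.8 in control libraries 1, 2 and 3 and 78.3, 85.7 and 91.2 in knockout libraries in adipogenic medium. Every knockout library exceeded every control library, and Rrm2 rose by 0.99 ± 0.18 (SE, limma adjusted p = 0.00235), or by 1.26 ± 0.06 (SE, limma adjusted p = 2.47e-07) without control library 2. Rrm1, the large subunit of the same enzyme, stood at 11.2 to 19.5 in control and 12.7 to 14.4 in knockout libraries and rose only without control library 2, by 0.23 ± 0.05 (SE, limma adjusted p = 0.0029). Tyms, thymidylate synthase, had values of 3.52, 4.37 and 3.77 in control and 2.40, 2.64 and 2.56 in knockout libraries and fell, with -0.46 ± 0.07 (SE, limma adjusted p = 0.000631) and -0.39 without that library. Tk1, which salvages thymidine, had a difference of -0.66 ± 0.24 (SE, limma adjusted p = 0.0539), and of -0.30 ± 0.07 (SE, limma adjusted p = 0.00409) without control library 2. Thus Rrm2 and Tyms, whose products supply deoxynucleotides, changed in opposite directions.

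The other 3 replication genes that fell were spread over roles. Cdc6, which loads the helicase, stood at 2.92, 5.35 and 3.22 in control and 2.35, 2.36 and 2.30 in knockout libraries and fell, with -0.50 ± 0.15 (SE, limma adjusted p = 0.0255) and -0.28 without control library 2. Mcm10, a factor of the firing origin, had values of 2.45, 3.81 and 1.98 in control and 1.46, 1.57 and 1.69 in knockout libraries and fell, with -0.51 ± 0.14 (SE, limma adjusted p = 0.0185) and -0.32 without it. Hells, a chromatin remodeler of DNA methylation, stood at 3.33, 5.63 and 3.72 in control and 2.52, 2.35 and 2.53 in knockout libraries and fell, with -0.57 ± 0.13 (SE, limma adjusted p = 0.0079) and -0.38 without it. The G1/S genes did not pass: Ccne1 had values of 9.81, 14.3 and 9.78 in control and 8.06, 8.79 and 9.82 in knockout libraries, and E2f1 had 15.4, 21.2 and 15.6 and 14.7, 15.5 and 13.8. For Cdt1 they were 18.2, 24.0 and 17.4 in control and 16.5, 16.8 and 17.8 in knockout libraries, control library 3 lying within the knockout range.

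Pcna and some of the Mcm genes did not pass either with or without control library 2. Pcna stood at 65.9, 139 and 64.5 in control and 58.8, 66.9 and 68.7 in knockout libraries, with a difference without that library of -0.01 ± 0.06 (SE, limma adjusted p = 0.891). For Mcm2, Mcm4 and Mcm7 the difference without it was 0.00, -0.03 and 0.04 and did not pass, whereas Mcm3, Mcm5 and Mcm6 were lower without it, at -0.20, -0.24 and -0.18.

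The difference between the genotype effects was tested as the interaction of genotype and medium. It was negative, that is more toward lower values in adipogenic medium, for 29 of 29 mitosis genes, with a median of -0.90. It passed for 18 of these and for 5 replication genes (Ccne1, Mcm10, Gins2, Tyms and Hells), all negative, while over all genes tested 10.9% had a positive and 9.58% a negative interaction. The largest was that of Cdc20, at -1.55 ± 0.20 (SE, limma adjusted p = 0.000595), which was -1.36 ± 0.11 (SE, limma adjusted p = 1.32e-05) without control library 2. Kif20a, Plk1 and Kif2c followed at -1.37, -1.31 and -1.27. Without control library 2 the interaction was negative and passed for 27 of 29 mitosis genes, Mki67 and Mybl2 being the others, and it passed for 10 replication genes with a negative and 2 (Rrm2 and Cdt1) with a positive sign, while 19.7% of all genes tested had a positive and 22.5% a negative one. Under TPM scaling, in which the median of all genes was 0.16, 10 mitosis genes and 1 replication gene passed.

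The comparison of the media asked how the genes changed between adipogenic and osteogenic differentiation within a genotype. In knockout cells all 29 mitosis genes fell from osteogenic to adipogenic medium, with a median of -0.96 and a range of -1.19 to -0.50, and none rose. Of the replication genes 20 fell and 1, Rrm2, rose, with a median of -0.70, while over all genes tested 13.9% rose and 14.0% fell. Without the adipogenic control library 2 in the shared estimate of the spread, 29 mitosis and 22 replication genes fell and 1 replication gene rose, against 20.7% of all genes that rose and 21.8% that fell. Top2a fell most, with -1.19 ± 0.19 (SE, limma adjusted p = 0.00126), and Mki67, which was not called between the genotypes in either medium, fell with -0.95 ± 0.22 (SE, limma adjusted p = 0.00978). Cdt1 had a difference of -0.02 ± 0.10 (SE, limma adjusted p = 0.898) that did not pass, and Fen1, Pcna and Rrm1 did not pass. Rrm2 rose by 0.58 ± 0.18 (SE, limma adjusted p = 0.0334), a call that was lost on leaving out any of the 6 knockout libraries. The count of replication genes that fell was 11 without knockout library 2 in osteogenic medium or library 1 in adipogenic medium and 13 without knockout library 3 in osteogenic medium.

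In control cells none of the 54 genes was called with library 2 in the group, while over all genes tested 10.5% rose and 12.3% fell. At an unadjusted p under 0.05, 2 mitosis genes were higher and 1 lower and 1 replication gene was lower, and limma voom also called none. Without library 2, 19 of 29 mitosis genes and 21 of 25 replication genes fell and none rose, with medians of -0.32 and -0.46, while 24.5% of all genes tested rose and 23.3% fell. Mki67 and Pcna fell in that fit, with differences of -0.86 ± 0.07 (SE, limma adjusted p = 1.18e-05) and -0.81 ± 0.06 (SE, limma adjusted p = 8.89e-06). The genes of mitotic exit and entry did not pass in it: Cdc20 had a difference of 0.19 ± 0.08 (SE, limma adjusted p = 0.0781), Plk1 of -0.06 ± 0.08 (SE, limma adjusted p = 0.59) and Ccnb1 of -0.06 ± 0.07 (SE, limma adjusted p = 0.516). Tyms likewise had -0.00 ± 0.05 (SE, limma adjusted p = 0.989). Every one of the 8 genes of origin licensing fell in control cells without library 2, with differences of -0.27 to -0.64.

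**Figure D4:**
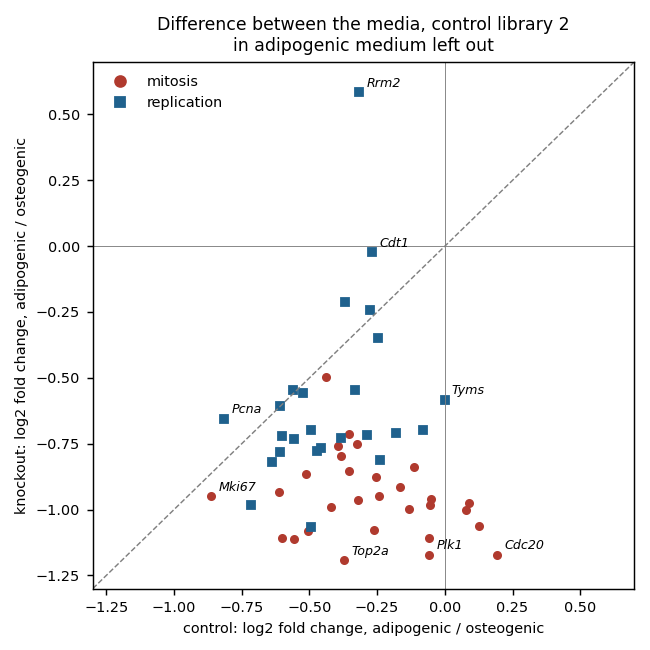
Each point is a gene, with the log2 fold change of adipogenic against osteogenic medium in control cells on the horizontal axis and in knockout cells on the vertical axis, both without control library 2 in adipogenic medium, mitosis genes as red circles and replication genes as blue squares. All 29 mitosis genes lie below the dashed line of equal change, and Rrm2, at -0.32 in control and 0.58 in knockout cells, lies far above it.

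Set side by side in each library, the mitosis and replication genes parted in the osteogenic knockout cells. Relative to the mean of the osteogenic controls, the median of the 29 mitosis genes was 0.32, 0.30 and 0.35 in the knockout libraries in osteogenic medium, and that of the 25 replication genes was 0.08, 0.13 and 0.12. In adipogenic medium it was -0.33 for mitosis and -0.38 for replication genes in control library 1, and -0.27 and -0.51 in control library 3. In the knockout libraries it was -0.67, -0.59 and -0.54 for mitosis genes, below both of these control libraries, and -0.65, -0.55 and -0.49 for replication genes, which overlapped control library 3. Control library 2 in adipogenic medium had 0.44 for mitosis and 0.29 for replication genes, above every library in osteogenic medium in both sets. These medians describe the libraries and were not tested.

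**Figure D5:**
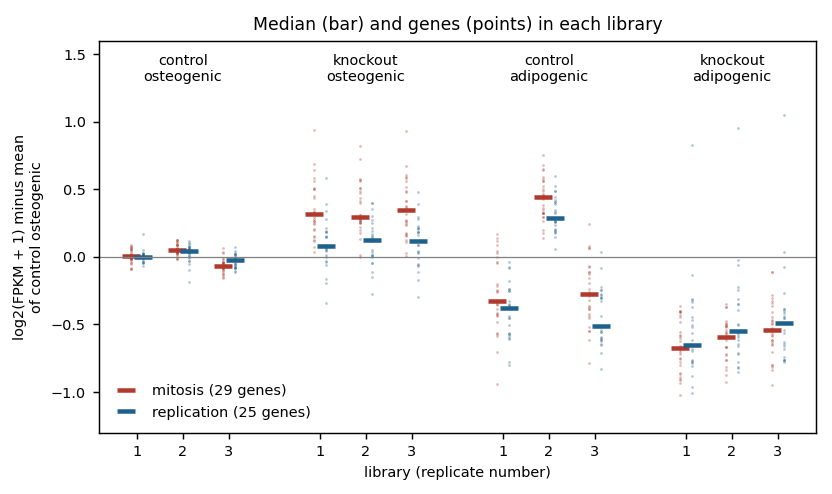
Bars are the median over 29 mitosis genes (red) and 25 replication genes (blue) in each library and points are the genes, as log2(FPKM + 1) minus the mean of the control libraries in osteogenic medium. The bars of control library 2 in adipogenic medium stand at 0.44 and 0.29, and those of the 3 knockout libraries beside it lie between -0.67 and -0.49.

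Other genes of the cycle, taken from lists written from general knowledge, gave the following counts, to be read against the shares of all genes tested: in osteogenic medium 4.94% rose and 4.15% fell, and 11.4% and 10.8% without the adipogenic control library 2, and in adipogenic medium 16.7% rose and 16.5% fell, and 24.3% and 26.8% without it. Of 62 further mitosis genes 60 were tested. In osteogenic medium 6 rose and none fell, or 38 rose and none fell without that library, with a median of 0.27, and Ckap2, Ube2c and Cks2 had the largest differences at 0.78, 0.62 and 0.52. In adipogenic medium 29 fell and 1 rose (Gtse1), with a median of -0.41, led by Ckap2l, Incenp and Ube2c at -0.81, -0.80 and -0.78, and without control library 2, 28 fell with a median of -0.22 over the list, and 4 rose (Spc25, Mad1l1, Cks1b and Gtse1). Of 44 further replication genes none was called in osteogenic medium by limma or by voom, with 1 higher and 1 lower at an unadjusted p under 0.05 and a median of 0.06, and 7 fell in adipogenic medium, with a median of -0.23, led by Gins1, Lig1 and Timeless at -0.76, -0.61 and -0.52. Without control library 2, 9 fell and 5 rose in adipogenic medium, with a median of -0.07, and in osteogenic medium 3 rose (Dbf4, Rpa1 and Chaf1a) and 1 fell (Pold3). The genes named for these and the following lists were picked after their values were seen.

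Some inhibitors of the cycle were higher in knockout cells in adipogenic medium. Of 11 CDK inhibitors and pocket proteins, 4 rose (Cdkn1a, Cdkn1c, Cdkn2a and Cdkn2b) and 1 fell (Rbl1), with a median of 0.07, and without control library 2 Cdkn2c also rose, so that 5 rose and 1 fell, with a median of 0.21. Cdkn1a, the gene for the inhibitor p21, had an FPKM of 74.3, 71.1 and 73.2 in control and 122, 123 and 121 in knockout libraries. Unlike for the 54 genes, control library 2 was close to libraries 1 and 3 here, and Cdkn1a rose by 0.74 ± 0.03 (SE, limma adjusted p = 7.14e-07), or by 0.72 without that library. In osteogenic medium it stood at 73.7 to 76.9 in control and 80.7 to 82.0 in knockout libraries, a difference of 0.11 ± 0.03 (SE, limma adjusted p = 0.0879). Cdkn2b, the gene for p15, rose in both media, by 0.73 ± 0.13 (SE, limma adjusted p = 0.00762) in osteogenic and 0.90 ± 0.13 (SE, limma adjusted p = 0.000732) in adipogenic medium. In osteogenic medium Cdkn2a also rose and Cdkn1b fell, by 0.47 and -0.30, so that 2 of 11 rose and 1 fell, and without the adipogenic control library 2 Cdkn1a and Cdkn3 also rose and Cdkn1c also fell, which made 4 and 2.

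Of 17 genes of the p53 response and of growth arrest, 9 rose and 1 fell in adipogenic medium, with a median of 0.35, and 3 rose (Gas1, Phlda3 and Sesn2) and none fell in osteogenic medium, with a median of 0.10. Without control library 2 the counts were 10 and 4 in adipogenic medium, with Ccng2, Btg1 and Gadd45a also lower, and 4 and 2 in osteogenic medium, with Gadd45a also higher and Btg2 and Trp53inp1 lower. Phlda3, a p53 target that restrains Akt, stood at 54.2, 76.2 and 56.3 in control and 132, 143 and 148 in knockout libraries in adipogenic medium and rose by 1.18 ± 0.11 (SE, limma adjusted p = 5.01e-05), or by 1.33 without control library 2. The largest value was that of Gas6, at 1.51 and 2.18 without that library, and the gene that fell was Gas1, at -0.98 and -1.11. Of 21 cyclins, kinases and E2F factors of G1 that were tested, 2 rose (Ccnd1 and Ccnd2) and 1 fell (Cdc25a) in adipogenic medium, where without control library 2 6 rose and 3 fell, with E2f3 and E2f4 also lower. In osteogenic medium 1 rose (Ccnd2) and 2 fell (Cdk6 and Myc), and without that library Ccnd1, Cdk4 and Tfdp1 also rose and E2f2 also fell, which made 4 and 3. Ccnd1, the cyclin of early G1, stood at 32.6, 74.3 and 33.9 in control libraries 1, 2 and 3 and 78.4, 81.4 and 80.9 in knockout libraries in adipogenic medium and rose by 0.87 ± 0.24 (SE, limma adjusted p = 0.0205), or by 1.25 without control library 2. Here control library 2 was again close to the libraries in osteogenic medium, where Ccnd1 ranged over 71.9 to 73.2 in control cells.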

How the data were processed

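The authors sequenced 12 RNA samples in 4 groups on an Illumina HiSeq after NEBNext Ultra library preparation, with quality control by FastQC and the FASTX toolkit. The software listed includes HISAT2 and Ballgown, while the submitters' processing notes name Bowtie 0.12.2 and mm9, so the steps from reads to values are not settled. The authors deposited 1 table of FPKM. Its values were whole multiples of 1 fragment within 0.02 fragments for 98.2% to 98.4% of genes under 30 fragments per library (4% by chance) and had been scaled by median ratios between libraries. Symbols, exonic lengths and overlaps came from GENCODE M21, which named 54409 of 54532 genes. log2(FPKM + 1) was fitted in limma 3.58.1 (R 4.3.3) with a mean-variance trend and a mean per group, and p-values were adjusted by the Benjamini-Hochberg method over the 12871 genes that reached an FPKM of 1 in 3 or more libraries, with calls at an adjusted p of 0.05. The fit was also run on simulated data with known changes and, for each gene, the same spread in all groups. The measured spread was larger in control libraries in adipogenic medium, and the simulation does not cover that. Replicate numbers of the groups were not treated as pairs, since the deviations of same-numbered libraries had correlations of -0.29 to 0.47 in adipogenic and -0.04 to 0.06 in osteogenic medium. Motifs and figures were made in Python 3.11.15 with matplotlib 3.10.9. The members and gene lists were chosen with earlier results of these data known. Every library is given for 20 genes, those with the largest change and some with a change smaller than the spread, and the others are given as ranges. Alternatives were another pseudocount, no filter, other scalings, no trend, voom on recovered fragments, a replicate block, only the compared groups and leaving out each library. After seeing the data, control library 2 in adipogenic medium was also left out of the fits of contrasts that do not contain it. The names of the further replication genes that rose without that library in adipogenic medium are not reported here.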

Additional observations from a re-analysis of the deposited data

Results flagged for a closer look

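For 23 of the 54 genes the effect of genotype differed between the media by the test of the difference itself (limma interaction, adjusted p under 0.05), and all 23 values were negative. On the log2 scale, adipogenic minus osteogenic, the mitosis genes had -1.55 for Cdc20, -1.37 for Kif20a, -1.31 for Plk1, -1.27 for Kif2c, -1.26 for Ccnb1, -1.25 for Aurka, -1.13 for Tpx2, -1.11 for Top2a, -1.07 for Ccnb2, -1.06 for Cenpf and -1.06 for Prc1. Smaller values were -0.96 for Ndc80, -0.95 for Bub1, -0.92 for Cenpe, -0.90 for Cdk1, -0.89 for Birc5, -0.82 for Nusap1 and -0.68 for Nuf2. Of the replication genes, Gins2 had -0.83, Ccne1 -0.79, Mcm10 -0.73, Tyms -0.65 and Hells -0.61. Control library 2 in adipogenic medium raised the adipogenic control mean of all 54 genes, and without it the interaction of all 23 remained past the threshold with the same sign. Over the exonic bases of Gins2, 67.3% are overlapped by a gene on the opposite strand, and 29.3% of those of Kif20a.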

How the results depend on the processing

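No call reversed its direction under any alternative. For the genotype effect in osteogenic medium the 7 mitosis calls became 2 without the filter on low values, 1 under TPM scaling, 23 with only the compared groups and 2 to 22 on leaving out a library, and the 1 replication call became 0, 0, 11 and 0 to 8. In adipogenic medium the 20 mitosis calls became 3 under TPM scaling and 2 with only the compared groups, and the 5 replication calls became 2 and 2, with 3 to 12 on leaving out a library. For the interaction the 18 mitosis calls became 10 under TPM scaling, and the 5 replication calls became 2 without the filter, 1 under TPM scaling and 2 to 12 on leaving out a library. The medium effect in control cells, with 0 calls, became 0 to 19 for mitosis and 0 to 21 for replication genes on leaving out a library, the highest without library 2 and 1 mitosis call (higher) without library 1. In knockout cells the 21 replication calls became 10 under TPM scaling and 11 to 23 on leaving out a library. A pseudocount of 0.1, median-ratio scaling and voom kept all 106 single-gene calls, omission of the trend 103 and TPM scaling 55. Median-ratio scaling could hardly move a call, because the deposited values had already been scaled in that way. Fewer libraries leave fewer degrees of freedom, and without the filter more genes are tested. The cause of the TPM change was not tested beyond the shift of the median.

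With a replicate block, 2 mitosis and 0 replication genes were called for the genotype effect in osteogenic medium, and 3 replication genes for the interaction, and no other count moved by over 1.5 times. The samples are known only to share a number, and whether they were paired was not settled. The correlation of same-numbered deviations was below 0.1 for some pairs of every comparison, and in none did every library correlate best with its own number. Between the genotypes in adipogenic medium it was 0.47 and 0.40 for numbers 1 and 2 and -0.29 for number 3. The precision is limited by 3 libraries a group and, for genes near an FPKM of 1, by counting error.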
